A study of Mus musculus with 24 samples.

Results

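The fibroblast growth factor genes described here were 6 ligands (Fgf1, Fgf2, Fgf7, Fgf10, Fgf18 and Fgf22), 3 receptors (Fgfr1, Fgfr2 and Fgfr3) and the secreted binding protein Fgfbp1. They were chosen by symbol, and all 10 were found among the 18368 genes of the deposited expression table. RNA was sequenced from whole full-thickness skin of wild-type, outbred CD1 mice aged 7 weeks, whose hair cycle had been coordinated in telogen, the resting phase. Each of 12 mice was wounded at a single site (abdomen, back or cheek; 4 mice per site) with a punch of 2 mm, and gave 1 library from the day-3 wound and 1 from adjacent unwounded skin. Per the labels, abdomen and back mice carried 2 wounds and cheek mice 1, so the number of wounds cannot be told apart from the site.

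Fibroblast growth factors are secreted ligands that bind receptor tyrosine kinases on neighbouring cells together with heparan sulphate chains, and signal mainly through the Ras to MAP kinase cascade. In skin, Fgf7, Fgf10 and Fgf22 are known for acting on keratinocytes through the epithelial form of Fgfr2, whereas Fgfr1 is the main receptor of dermal cells. Fgf18 is known from the hair follicle, where it is associated with the resting phase, Fgf1 and Fgf2 lack a classical signal peptide, and Fgfbp1 releases ligands from the matrix.

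Levels are given in FPKM, the sequenced fragments of a gene divided by its transcript length and by the size of the library, so that genes can be set side by side. The values of 1 library summed to between 490830 and 608888 FPKM over all genes, with 15781 to 16577 genes above 0. Summed FPKM of 6 basal keratinocyte markers was at least 3666 and that of 6 fibroblast markers at least 4083 in every library, so the defining genes of skin were present throughout. In this bulk tissue, fewer cells of a type and less RNA per cell cannot be told apart. The unwounded cheek library of mouse 4 stood apart: 6 genes of the growing hair follicle (Krt25, Krt27, Krt71, Krt31, Tchh and Krt73) summed to 4927 FPKM there, against 0.95 to 78.0 in the other 23 libraries, which goes against the labelled telogen. For the members, wound effects and site differences were also fitted without this mouse. Marker sums, receptor shares and the test of responses between sites are given only with it.

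The sequences just upstream of the start sites are shown for the members whose mean wound effect passed the test and for which RefSeq promoter sequence was used (build GRCm38.p6, which matches the mm10 build of the labels). Each run holds the 250 bases before an annotated start, 5′ to 3′ on the strand of the gene, with capitals marking a GC box (GGGCGG) or a CCAAT box (CCAAT) on either strand.
Fgfr2, chr7:130266809-130267058, minus strand: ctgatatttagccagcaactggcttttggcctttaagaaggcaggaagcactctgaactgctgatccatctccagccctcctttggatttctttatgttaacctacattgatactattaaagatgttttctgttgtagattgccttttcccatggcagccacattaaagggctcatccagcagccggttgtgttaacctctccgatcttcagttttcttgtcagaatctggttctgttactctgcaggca
Fgfr3, chr5:33721474-33721723, plus strand: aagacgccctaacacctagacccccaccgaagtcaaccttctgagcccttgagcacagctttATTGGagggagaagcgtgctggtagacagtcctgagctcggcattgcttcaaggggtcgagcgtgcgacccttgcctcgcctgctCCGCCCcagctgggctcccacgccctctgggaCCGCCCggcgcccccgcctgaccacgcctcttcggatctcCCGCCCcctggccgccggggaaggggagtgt
Fgf10, chr13:118714449-118714698, plus strand: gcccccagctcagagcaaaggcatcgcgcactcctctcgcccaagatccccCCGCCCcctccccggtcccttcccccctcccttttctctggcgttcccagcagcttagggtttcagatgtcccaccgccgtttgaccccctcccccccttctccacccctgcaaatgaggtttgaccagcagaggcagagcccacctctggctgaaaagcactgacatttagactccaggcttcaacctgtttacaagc
Fgf18, chr11:33147401-33147650, minus strand: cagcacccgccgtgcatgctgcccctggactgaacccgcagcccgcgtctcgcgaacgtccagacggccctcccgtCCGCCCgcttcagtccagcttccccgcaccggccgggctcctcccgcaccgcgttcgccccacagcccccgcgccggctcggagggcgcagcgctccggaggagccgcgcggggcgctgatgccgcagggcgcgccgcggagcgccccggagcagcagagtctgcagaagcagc

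The 4 windows differed widely in composition. That of Fgfr2 held 44.0% G and C with 2 CpG dinucleotides, and no match to either box. That of Fgf18 held 77.2% G and C with 37 CpG dinucleotides and 1 GC box. Fgf10 had 61.2%, 8 CpG dinucleotides and 1 GC box, and this start of Fgfr3 had 66.8%, 19 CpG dinucleotides, 3 GC boxes and 1 CCAAT box. Another annotated start of Fgfr3, whose window is not printed, had 72.8%, 24 CpG dinucleotides, 2 GC boxes and no CCAAT box. Over all 32851 RefSeq windows of this length the medians were 52.4% and 6 CpG dinucleotides, and 32.7% held a GC box and 33.8% a CCAAT box. Neither the AP-1 motif TGANTCA (6.75% of all windows) nor the ETS motif CCGGAAG (6.91%) was found in these windows on either strand. These matches describe the letters of the windows and were not tested for binding.

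Fgfr2 was the only member whose wound and unwounded libraries did not overlap at any of the 3 sites. Of all tested genes, 24.4%, 40.4% and 31.7% did not overlap in abdomen, back and cheek. The share without overlap at all 3 sites is not given here. Fgfr2 encodes the receptor whose epithelial splice form binds Fgf7, Fgf10 and Fgf22, but the gene-level values sum its 3 listed transcripts, so splice forms were not separated. In abdomen, mice 1 to 4 had 29.2, 26.1, 28.6 and 29.8 FPKM in unwounded skin and 13.0, 16.8, 17.7 and 20.5 FPKM in the wound. The 4 back mice had 26.3, 24.6, 23.4 and 25.4 FPKM beside and 14.2, 16.2, 12.2 and 13.4 FPKM in the wound. The cheek mice had 21.0, 22.1, 31.8 and 27.9 FPKM against 13.6, 13.9, 11.1 and 15.7 FPKM. Every wound library lay below every unwounded library of its site, and each of the 12 mice had less Fgfr2 in the wound than beside it.

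Fold changes were estimated with limma on log2(FPKM + 0.5), a scale that understates changes of low genes, with a term for each mouse and Benjamini-Hochberg adjustment over the 14423 genes tested. A wound effect was called at an adjusted p under 0.001. By this test Fgfr2 fell in back wounds (log2 fold change -0.81, SE 0.14, adjusted p = 0.000431) and in cheek wounds (-0.89, SE 0.14, adjusted p = 0.000340). The abdomen value of -0.74 missed the threshold (adjusted p = 0.00162). The mean effect over the 3 sites, added after the data had been seen, was -0.82 (95% confidence interval -0.98 to -0.65, adjusted p = 1.98e-06). The back call was lost without any 1 of the 4 back mice (adjusted p 0.00149 to 0.00346), and the cheek call without cheek mouse 2, 3 or 4 (0.00114 to 0.00129).

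**Figure D1:**
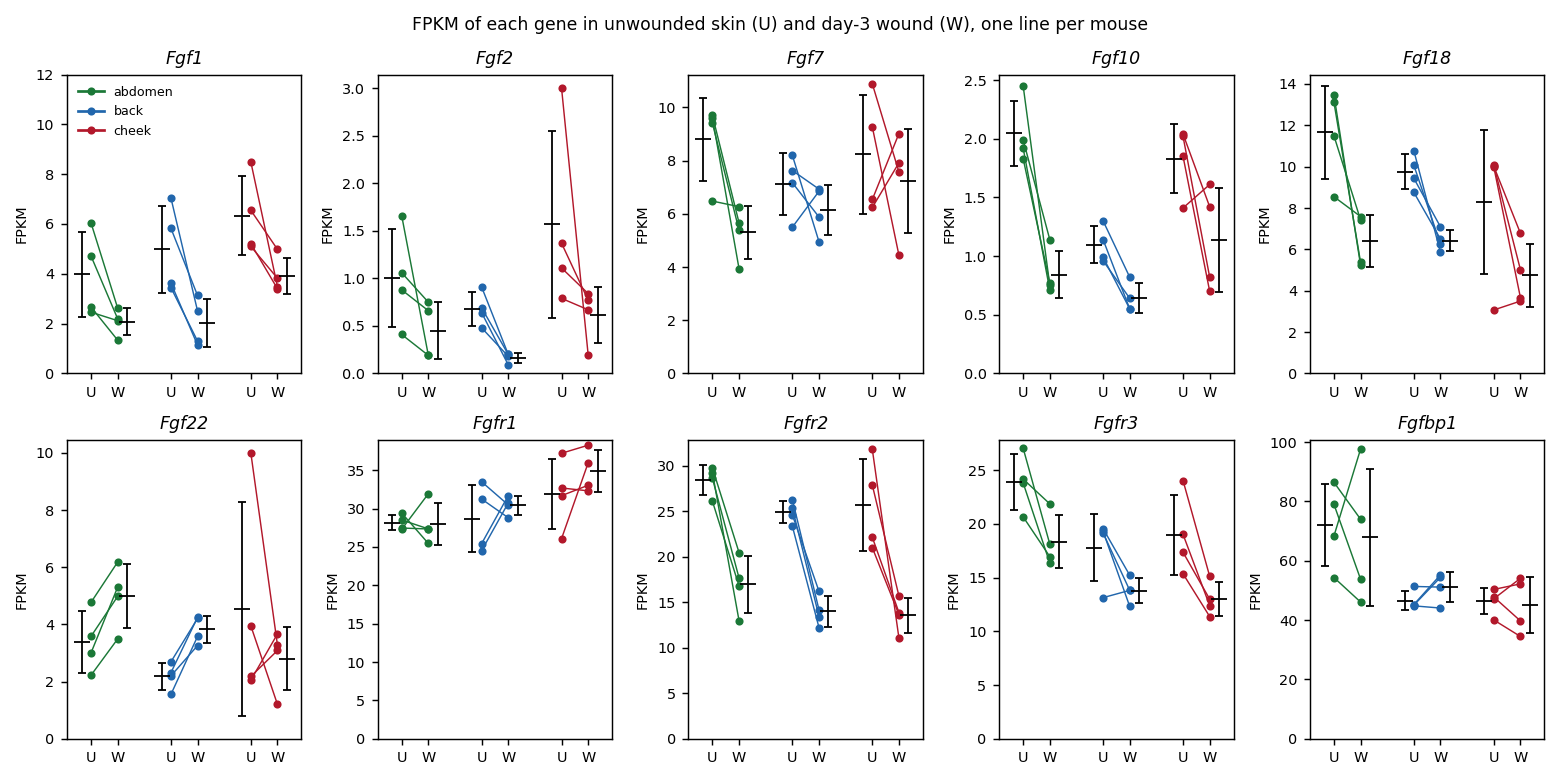
FPKM (y axis, from 0) of each of the 10 genes in unwounded skin (U) and wounds (W), with 1 line per mouse, colours for sites, and black bars for the mean and SD of 4 libraries. The Fgfr2 lines slope down in all 12 mice, whereas those of Fgfr1 and Fgfbp1 run both ways.

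Fgf1, a ligand that binds all of the receptors, had its largest difference in back. Unwounded back skin of mice 1 to 4 had 5.83, 7.05, 3.45 and 3.63 FPKM and their wounds had 3.13, 2.51, 1.3 and 1.14 FPKM. The groups did not overlap, and Fgf1 fell there by 1.15 on the log2 scale (SE 0.16, adjusted p = 0.000143). Means ± SD (n = 4) were 3.98 ± 1.72 against 2.07 ± 0.537 FPKM in abdomen and 6.34 ± 1.58 against 3.92 ± 0.730 FPKM in cheek. All 4 mice of each site had the lower value in the wound, but the abdomen (-0.74, adjusted p = 0.00480) and cheek values (-0.62, adjusted p = 0.0110) missed the threshold. The mean effect was -0.84 (SE 0.09, adjusted p = 8.22e-06). Without back mouse 2, 3 or 4 the adjusted p in back was 0.00111 to 0.00157.

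Fgf10, a dermal ligand of the epithelial form of Fgfr2, was low throughout. Unwounded abdomen skin had 1.99, 2.45, 1.83 and 1.92 FPKM and the wounds 1.14, 0.750, 0.770 and 0.710 FPKM. These groups were fully separate, as were those of back, where the means were 1.10 ± 0.156 and 0.640 ± 0.127 FPKM. In cheek 3 of 4 mice had less in the wound, mouse 1 being the exception with 1.41 FPKM beside and 1.61 FPKM in the wound. At single sites Fgf10 passed only the looser threshold of 0.05 (abdomen -0.93, adjusted p = 0.00173; back -0.49, adjusted p = 0.0325; cheek -0.54, adjusted p = 0.0256). Its mean effect was -0.65 (SE 0.10, adjusted p = 8.91e-05).

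Fgf18 had 13.1, 11.5, 13.5 and 8.55 FPKM in unwounded abdomen against 5.38, 7.43, 5.24 and 7.59 FPKM in the wounds, again without overlap. In back it ranged from 8.76 to 10.8 FPKM in unwounded skin and from 5.85 to 7.09 FPKM in wounds. In cheek mice 1 to 3 had 9.99 to 10.1 FPKM beside and 3.67 to 6.78 FPKM in the wound, but mouse 4 had 3.07 and 3.5 FPKM. No site passed 0.001 (adjusted p 0.0143, 0.0511 and 0.0335), and the mean effect did (-0.68, SE 0.13, adjusted p = 0.000528). That call was lost, with an adjusted p of 0.00105 to 0.00180, in 9 of 12 fits that left out 1 mouse. The exceptions were those without abdomen mouse 2, abdomen mouse 4 or cheek mouse 4, the last of which lowered the adjusted p to 6.83e-05.

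Fgfr3, the third receptor gene, differed less. Group means were 23.9 ± 2.61 FPKM in unwounded abdomen, 17.8 ± 3.10 in back and 18.9 ± 3.71 in cheek, and 18.3 ± 2.47, 13.8 ± 1.18 and 13.0 ± 1.58 FPKM in the wounds. Of the 12 mice 11 had less in the wound, back mouse 3 being the exception (13.1 FPKM beside, 13.8 FPKM in the wound). The site values of -0.38, -0.34 and -0.52 each had an adjusted p between 0.00257 and 0.0198, and the mean effect was -0.41 (SE 0.06, adjusted p = 8.32e-05).

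Fgf2 was near the limit of the table, at 0.410 to 3.00 FPKM in unwounded skin and 0.0900 to 0.840 FPKM in wounds. All 12 mice had the lower value in the wound, and the mean effect of -0.76 (95% confidence interval -1.16 to -0.37) had an adjusted p of 0.00292, above the threshold. Fgf7, a growth factor of the dermis that acts on keratinocytes, had 6.48, 9.70, 9.61 and 9.41 FPKM in unwounded abdomen and 6.27, 5.66, 3.93 and 5.38 FPKM in the wounds (-0.68, adjusted p = 0.0429). In back 3 of 4 and in cheek 2 of 4 mice had less Fgf7 in the wound, with effects of -0.19 (-0.71 to 0.32) and -0.18 (-0.69 to 0.33).

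Fgfr1 and Fgfbp1 were the members closest to 0 in wound effect. Fgfr1, the most abundant of the 3 receptor genes in every wound group, had means of 28.2 ± 0.990, 28.7 ± 4.38 and 31.9 ± 4.57 FPKM in unwounded abdomen, back and cheek, and 28.0 ± 2.76, 30.4 ± 1.21 and 34.9 ± 2.75 FPKM in wounds. Its mean effect was 0.07 with a 95% confidence interval of -0.06 to 0.20. Fgfbp1, at 34.5 to 97.6 FPKM over all libraries the most abundant member, had a mean effect of -0.02 (-0.19 to 0.16). For both genes the groups overlapped at every site.

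**Figure D2:**
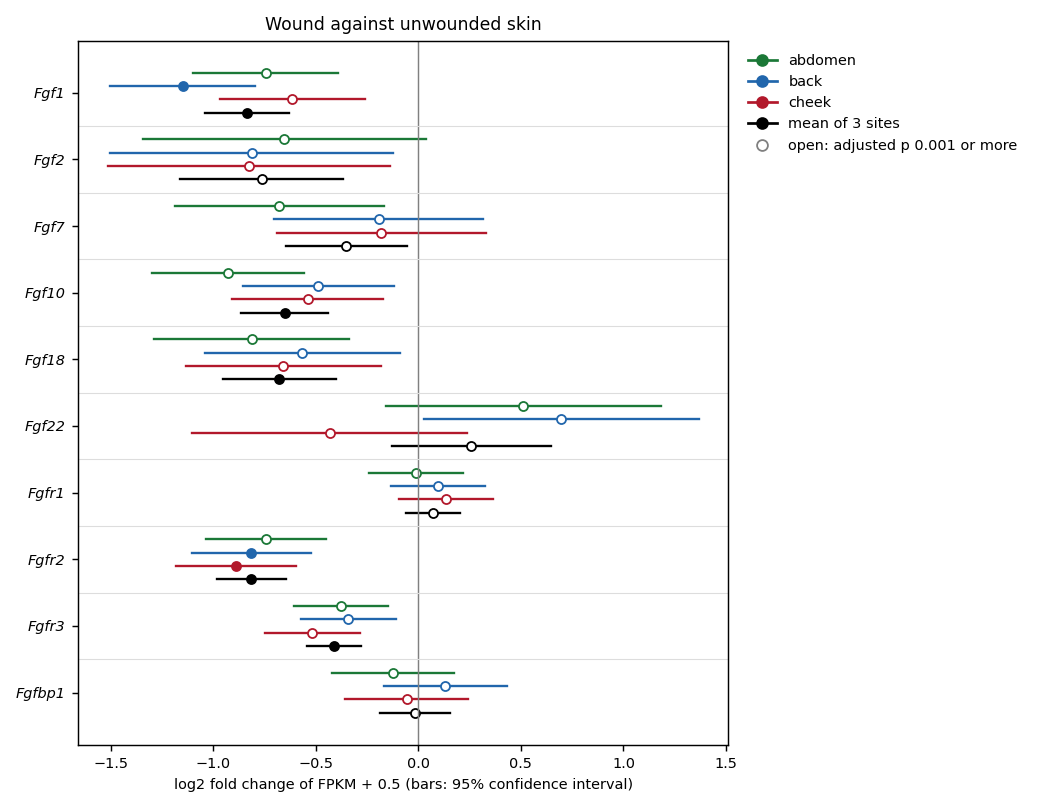
Wound effects as log2 fold changes of FPKM + 0.5 (x axis), with 95% confidence intervals, at each site and averaged over sites. Filled points had an adjusted p under 0.001: Fgf1 in back, Fgfr2 in back and cheek, and the means of Fgf1, Fgf10, Fgf18, Fgfr2 and Fgfr3.

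In counts, 0 of 10 members were called in abdomen, 2 in back and 1 in cheek, all lower, where 4.96%, 14.4% and 8.69% of all tested genes were called in either direction and 1.04%, 4.37% and 2.19% as lower. In abdomen 6 members had an unadjusted p under 0.05. This was not particular to abdomen. Fgf1, Fgf2, Fgf10, Fgf18, Fgfr2 and Fgfr3 were under it in both back and cheek, and Fgf22 in back. The share of all genes under this unadjusted cut-off is not given here. At an adjusted p under 0.05 there were 6, 4 and 5 members, all lower, against 16%, 17.9% and 16.9% of all genes as lower. Fgf1, Fgf10, Fgfr2 and Fgfr3 were below 0.05 and lower at all 3 sites, as were 7.15% of all genes. For the mean effect 5 members were called, all lower, against 14.4% of all genes as lower and 19.1% as higher. The 10 members had median log2 fold changes of -0.67 (abdomen), -0.41 (back) and -0.53 (cheek), beside medians of -0.01, 0.07 and 0.01 over all tested genes. Wound and unwounded groups did not overlap for 4 members in abdomen, 6 in back and 3 in cheek, beside 24.4%, 40.4% and 31.7% of all genes.

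Marker genes of the cell types in the samples also differed between wounds and unwounded skin, in both directions. The summed level of the 6 fibroblast markers was 6849 to 17982 FPKM in unwounded and 4083 to 9476 FPKM in wound libraries. Skeletal muscle markers (Acta1, Ckm, Mylpf, Tnnt3, Myh4 and Myh1) summed to 12586 to 19697 FPKM in unwounded back and 2863 to 4125 FPKM in back wounds, and to 9924 to 20087 against 4311 to 6056 FPKM in cheek. In abdomen they ran from 444 to 13667 FPKM in unwounded skin and from 1579 to 4787 FPKM in wounds. The 6 adipocyte markers summed to 772 to 2631 FPKM in unwounded and 582 to 1339 FPKM in wound libraries. The lowest unwounded fibroblast and adipocyte sums were both of cheek mouse 4, and the next lowest were 9886 and 1444 FPKM. By the mean wound effect 3 of 6 fibroblast, 6 of 6 adipocyte and 0 of 6 muscle markers (6 at an adjusted p under 0.05) were called, all lower. The 6 neutrophil markers ran the other way, with 8.45 to 37.8 against 346 to 2390 FPKM, and all 6 were called higher. The 6 basal keratinocyte markers summed to 3666 to 5916 FPKM in unwounded and 5314 to 10920 FPKM in wound libraries but moved in both directions, with 3 called higher, 2 lower and a median mean effect of 0.03. Krt14, an abundant keratin, had a mean effect of 1.82, whereas Krt15 had -0.88. Of the wound keratinocyte markers (Krt6a, Krt6b, Krt16 and Krt17) 4 of 4 were called higher, with a median mean effect of 5.91. For endothelium 4 of 6 and for macrophages 5 of 6 were called higher. Suprabasal epidermis had 1 of 6 called higher and a median of -0.05. For T cells 2 of 5 were called lower, and 0 of 5 growing hair follicle markers were called. The part of these shifts in the lower member levels was not tested.

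The shares of the 3 receptor genes in their summed level differed between wounds and unwounded skin. Fgfr1 made up 35% ± 1.60, 40.2% ± 5.32 and 41.9% ± 7.29 (SD, n = 4) of the summed FPKM of Fgfr1, Fgfr2 and Fgfr3 in unwounded abdomen, back and cheek, and 44.3% ± 3.27, 52.3% ± 2.21 and 56.9% ± 2.34 in wounds. Fgfr2 made up 35.3%, 35% and 33.4% in unwounded skin and 26.6%, 24.0% and 22.0% in wounds. Fgfr3 had 29.6%, 24.9% and 24.7% against 29.1%, 23.7% and 21.1%. The shares of Fgfr1 in wounds lay above, and those of Fgfr2 below, all unwounded values of the same site. These shares are given as a description, since they follow from the tested levels.

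**Figure D3:**
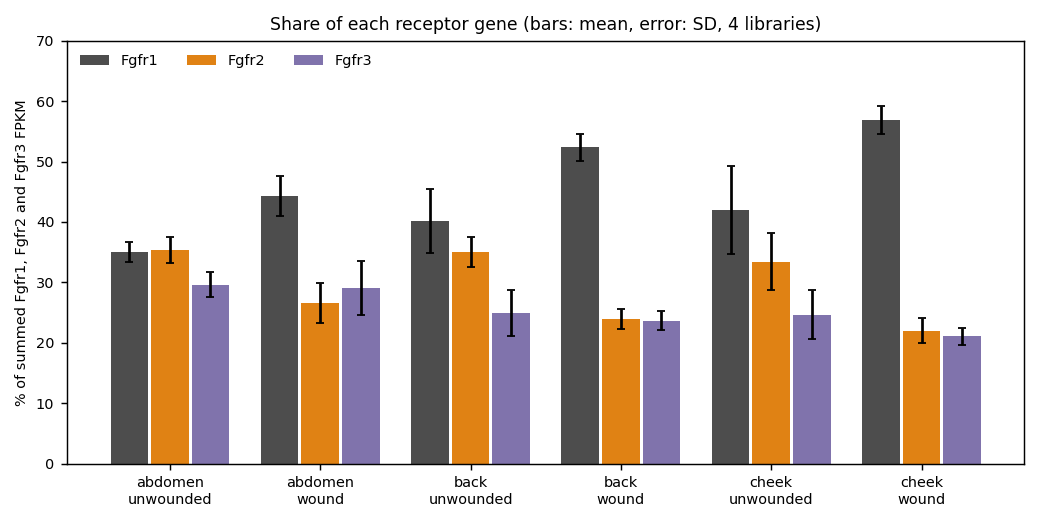
Share (%, y axis from 0) of Fgfr1, Fgfr2 and Fgfr3 in their summed FPKM for the 6 groups, as mean and SD of 4 libraries. Fgfr1 and Fgfr2 have near-equal shares in unwounded abdomen (35% and 35.3%) and are farthest apart in cheek wounds (56.9% and 22.0%).

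Fgf22, a ligand found in epidermis and hair follicle, was the member whose wound effects lay farthest apart between sites. In abdomen mice 1 to 4 had 3.58, 4.77, 2.22 and 3.00 FPKM beside and 4.98, 6.18, 3.49 and 5.30 FPKM in the wound. In back the values were 2.69, 1.55, 2.2 and 2.31 against 4.21, 3.58, 3.26 and 4.25 FPKM. In cheek they were 2.05, 2.18, 3.95 and 10 against 3.67, 3.09, 1.2 and 3.27 FPKM. All 8 abdomen and back mice and cheek mice 1 and 2 had more Fgf22 in the wound, and cheek mice 3 and 4 had less.

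None of the effects was called: abdomen had 0.51 (SE 0.31, adjusted p = 0.220), back 0.70 (adjusted p = 0.0820) and cheek -0.43 (adjusted p = 0.292). Cheek mouse 4 is the animal whose unwounded library held the growing hair follicle genes, and cheek mouse 3 had 18.9 FPKM of them and back mouse 2 had 78.0 FPKM in unwounded skin. In a fit without these 3 mice, all with more than 10 FPKM of that list in a library and left out after the data had been seen, Fgf22 had effects of 0.51, 0.60 and 0.57. Its mean effect was then 0.56 and passed the threshold (adjusted p = 0.000152). Cheek mice 3 and 4, left out here, were the only mice with less Fgf22 in the wound. A rise in all remaining mice was thus fixed by that choice, and the call is not separate evidence. Without cheek mouse 4 alone it was 0.37 with an adjusted p of 0.0564. In the fit without the 3 mice the calls of the mean effects of Fgf10 (-0.61, adjusted p = 0.00220), Fgf18 (-0.68, adjusted p = 0.00103) and Fgfr3 (-0.38, adjusted p = 0.00298) were lost, while those of Fgf1 (-0.87, adjusted p = 0.000259) and Fgfr2 (-0.76, adjusted p = 1.68e-05) stayed under 0.001. At single sites the same fit lost the calls of Fgf1 in back (-1.09, adjusted p = 0.00298) and of Fgfr2 in cheek (-0.63, adjusted p = 0.01), kept that of Fgfr2 in back (-0.89, adjusted p = 0.000410) and called Fgfr2 in abdomen (-0.74, adjusted p = 0.000662).

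The unwounded cheek library of mouse 4 had the lowest Fgf18 of all 24 libraries (3.07 FPKM, the others 3.5 to 13.5) and the highest Fgf22 (10 FPKM, the others 1.2 to 6.18). Fgf5, a ligand known for ending hair growth, is not among the 10 members and was looked at after its values were seen. It stood at 2.72 FPKM there and at 0.10 to 0.80 FPKM elsewhere. Fgf7 (6.54 FPKM) and Fgf10 (2.04 FPKM) of that library lay inside the range of the others. The wound library of the same mouse had 2.04 FPKM of the hair follicle list. This is 1 library, so no test was made.

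**Figure D4:**
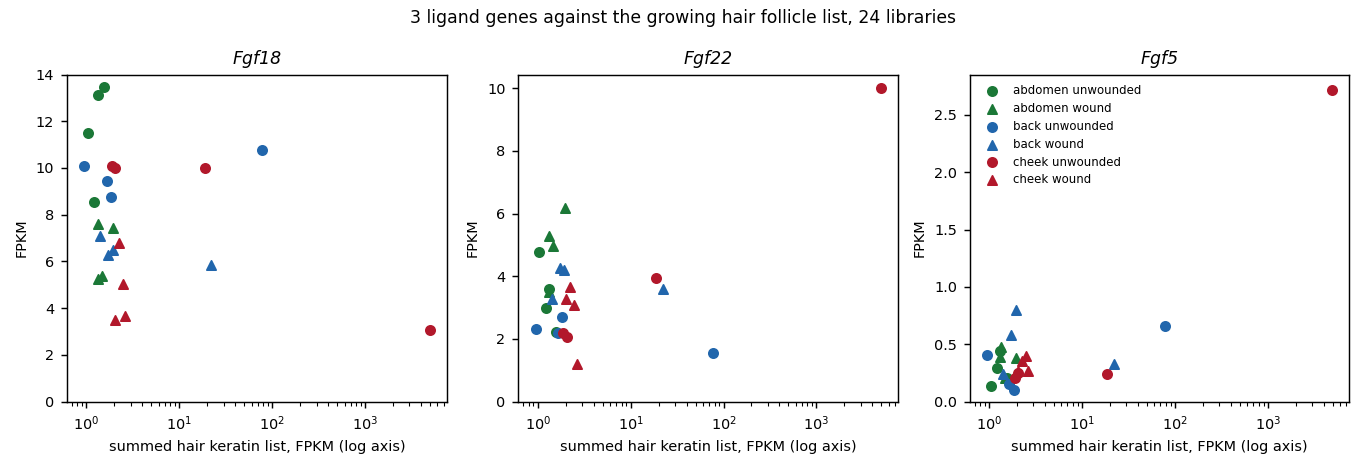
FPKM of Fgf18, Fgf22 and Fgf5 (y axes from 0) against the summed FPKM of 6 growing hair follicle genes (log axis) in 24 libraries, with circles for unwounded skin and triangles for wounds. The single point at 4927 FPKM is the unwounded cheek library of mouse 4, lowest in Fgf18 and highest in Fgf22 and Fgf5.

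Whether the response to wounding differed between sites was asked with a moderated F test of the 3 wound effects. It called 0 of 10 members, beside 0.0208% of all tested genes, at an adjusted p under 0.05. Fgf22 had the lowest unadjusted p (0.0497, adjusted 0.385), followed by Fgf1 (0.0918, adjusted 0.436), and Fgf22 was the only member under 0.05 before adjustment. For Fgfr2 the difference between the cheek and abdomen effects was -0.14 with a 95% confidence interval of -0.56 to 0.27. The calls of Fgf1 in back alone and of Fgfr2 in back and cheek alone are not shown to be differences between sites.

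In homeostasis, sites were compared over the 12 unwounded libraries, where a call needed an adjusted p under 0.05 over 13956 tested genes. The 3 pairs of sites share libraries. Fgfbp1 was higher in abdomen, with 68.3, 86.5, 79.1 and 54.4 FPKM, than in back, with 45.0, 51.4, 45.2 and 44.8 FPKM, or cheek, with 47.8, 40.1, 50.4 and 47.2 FPKM. The lowest abdomen library lay above all 8 others. Fgfbp1 was called lower than in abdomen both in back (-0.60, SE 0.13, adjusted p = 0.0322) and in cheek (-0.61, adjusted p = 0.0341), and an exact permutation test of 4 against 4 libraries gave p = 0.0286 for each, the smallest it can give. Between cheek and back the difference was -0.01 (-0.30 to 0.28).

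Fgf10 was lowest in back skin. It had 0.960 to 1.3 FPKM there, 1.83 to 2.45 FPKM in abdomen and 1.41 to 2.04 FPKM in cheek, so that back overlapped neither site. The difference between back and abdomen was called (-0.67, SE 0.14, adjusted p = 0.0267) and that between cheek and back was not (0.54, adjusted p = 0.0893). The median of all genes was itself -0.12 between back and abdomen, and after median-ratio scaling both differences from abdomen lost their calls in back, with -0.57 (adjusted p = 0.0530) for Fgf10 and -0.47 (adjusted p = 0.0750) for Fgfbp1. The cheek value of Fgfbp1 then had an adjusted p of 0.0212.

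These calls also rested on single mice. Between back and abdomen, Fgf10 lost its call without abdomen mouse 2 or 3 or back mouse 1, 3 or 4 (adjusted p 0.0591 to 0.0982), and Fgfbp1 without abdomen mouse 1, 2 or 3 or any 1 back mouse (0.0518 to 0.113). Between cheek and abdomen, Fgfbp1 lost it without abdomen mouse 2 or 3 or cheek mouse 1, 2 or 4 (0.0616 to 0.122). In counts, 2 of 10 members were called between back and abdomen, 1 between cheek and abdomen and 0 between cheek and back, beside 2.67%, 2.57% and 1.05% of all tested genes. Beyond these calls, Fgf2 (0.0360) and Fgf10 (0.00212) had an unadjusted limma p under 0.05 between cheek and back. So did Fgfr3 between back and abdomen (0.0164), and Fgf1 (0.0376) and Fgfr3 (0.0471) between cheek and abdomen. The share of all genes under this unadjusted cut-off is not given here.

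Among the 12 wound libraries, over 14023 tested genes, cheek and abdomen differed in 2 receptor genes. Fgfr1 was higher in cheek wounds, with 38.3, 32.3, 33.1 and 36.0 FPKM, than in abdomen wounds, with 27.4, 25.5, 27.4 and 31.9 FPKM (0.31, SE 0.08, adjusted p = 0.0318). Fgfr3 was lower in cheek wounds, with 13.0, 11.4, 12.4 and 15.1 FPKM against 18.1, 21.9, 17.0 and 16.4 FPKM (-0.48, SE 0.11, adjusted p = 0.0219). Neither pair of groups overlapped, though the nearest Fgfr1 libraries were 31.9 and 32.3 FPKM. Of all genes 10.8% were called in this comparison, 7.52% as higher and 3.32% as lower. The lower Fgfr3 was not particular to cheek wounds. Without a call, Fgfr3 was also below abdomen in unwounded cheek (-0.34, adjusted p = 0.256), unwounded back (-0.43, adjusted p = 0.145) and back wounds (-0.39, adjusted p = 0.0954). Its wound effect in cheek differed from that in abdomen by -0.14 (95% confidence interval -0.47 to 0.19).

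The Fgfr1 call was lost under median-ratio scaling (0.24, adjusted p = 0.0725) and without abdomen mouse 2 or 3 or cheek mouse 1, 3 or 4 (adjusted p 0.0519 to 0.0753). The Fgfr3 call was lost without cheek mouse 2 (0.0595) or 3 (0.0530). Fgf1, with 3.40 to 4.98 FPKM in cheek wounds, lay above all abdomen (1.34 to 2.63 FPKM) and back wounds (1.14 to 3.13 FPKM) but was not called (0.79 with adjusted p = 0.0600, and 0.88 with adjusted p = 0.0709). Fgf22 had a difference of -0.79 between cheek and abdomen wounds that was not called (adjusted p = 0.0628) but passed 0.05 under median-ratio scaling (-0.85, adjusted p = 0.0478) and quantile normalization (-0.92, adjusted p = 0.0313). Between back and abdomen wounds and between cheek and back wounds limma called 0 members, beside 1.27% and 2.5% of all genes. Members with an unadjusted limma p under 0.05 were Fgfr3 in the former and Fgf1, Fgf2, Fgf10, Fgf18 and Fgfr1 in the latter. The share of all genes under this unadjusted cut-off is not given here, so no result about the members is drawn from it.

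**Figure D5:**
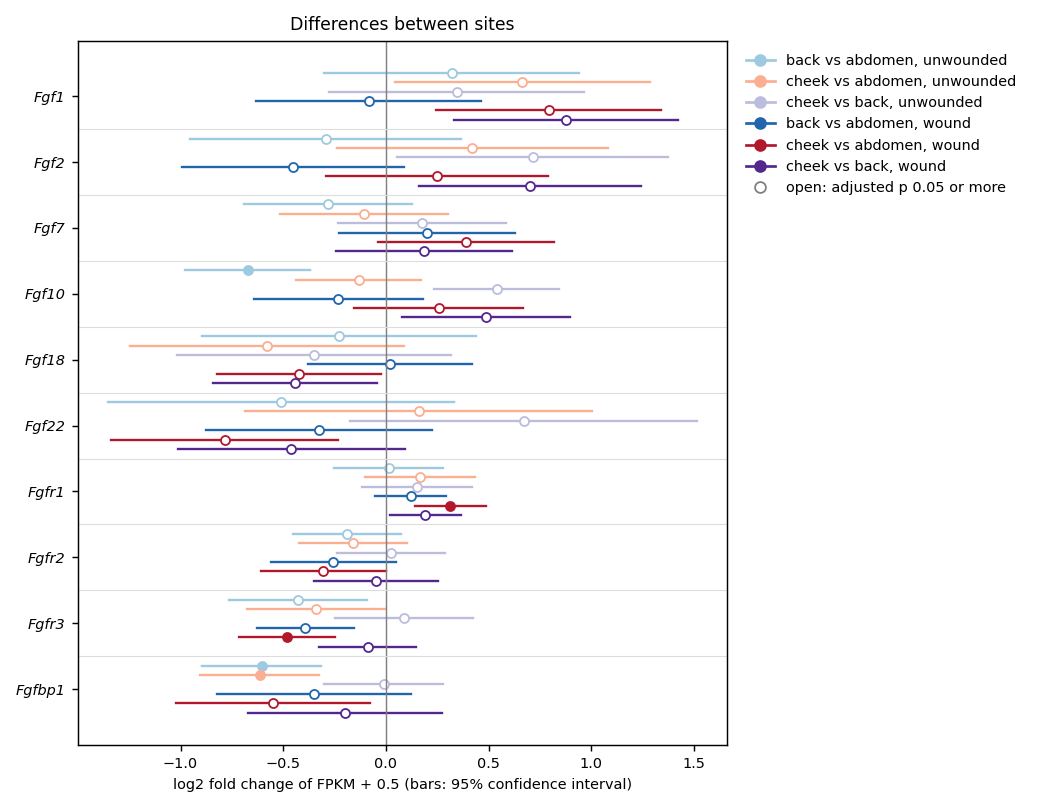
Differences between sites as log2 fold changes of FPKM + 0.5 (x axis), with 95% confidence intervals, in unwounded skin (light) and wounds (dark). Filled points had an adjusted p under 0.05: Fgf10 and Fgfbp1 in unwounded skin, and Fgfr1 and Fgfr3 between cheek and abdomen wounds.

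The rest of the pathway was followed with a list of 79 further genes, of which 68 were tested for wound effects. At an adjusted p under 0.001, 3 were higher and 0 lower in abdomen, 9 and 2 in back, and 7 and 0 in cheek, and their median log2 fold changes were -0.0015, 0.09 and 0.03. Of all tested genes 4.96%, 14.4% and 8.69% were called in either direction at these sites, and 1.04%, 4.37% and 2.19% as lower. Of the 68, those called at all 3 sites were Sdc3, a cell-surface heparan sulphate proteoglycan, and Dusp5, a phosphatase that dampens ERK and is induced by it. The share of all genes called at all 3 sites is not given here. Sdc3 rose by 1.54, 1.54 and 1.12 on the log2 scale (adjusted p 0.000127, 5.39e-05 and 0.000740), from 13.7 ± 1.52, 19.0 ± 8.30 and 18.7 ± 1.44 FPKM to 43.4 ± 19.9, 56.0 ± 22.7 and 42.1 ± 10.9 FPKM. Dusp5 rose by 0.90, 1.15 and 0.92 (adjusted p 0.000387, 2.93e-05 and 0.000226). Macrophage and neutrophil markers were higher in the same wounds, and their part in these values was not tested.

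By role, 0 of 3 tested other ligands, 0 of 3 intracellular homologous factors and 0 of 1 other carrier protein were called at any site. Of 6 other receptors and co-receptors 1 was called lower in back, and of 9 proteoglycans 2, 1 and 2 were called higher in abdomen, back and cheek. Of 12 heparan sulphate enzymes 0, 1 and 1 and of 17 adaptors and kinases 0, 3 and 1 were called higher. Of 11 feedback inhibitors 1, 2 and 2 were called higher and 1 in back lower, and of 6 transcription factors 0, 2 and 1 were called higher. The F test called 0 of the 68.

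For the members called in at least 1 wound comparison, the genes with the most similar pattern were found by the root mean square difference of log2(FPKM + 0.5) over 24 libraries, each gene centred on its mean. For Fgfr2 these were Fut1 (0.161), Arvcf (0.169) and Nkd1 (0.180). For Fgf1 they were AI464131 (0.256), Tead1 (0.260) and Fyco1 (0.269). This choice was made after the values were seen, since no member was called at all 3 sites.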

How the data were processed

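Paired-end reads of 100 bases were obtained from whole skin RNA of 12 CD1 mice (24 libraries, 6 groups of 4). Per the labels, the tools used by the authors were HISAT2, Bowtie2 (2.2.5), RSEM (1.2.12) and DESeq2, with build mm10. The authors deposited FPKM values per gene and library, without scaling between libraries. They also deposited a table of their own comparisons (fold changes and adjusted p-values), which was not used. Of per-sample columns 0 were left out.

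On the log2(FPKM + 0.5) scale, limma (3.58.1; statmod 1.5.0; R 4.3.3) was run with trend and robust moderation. A gene entered a fit if 4 or more of its libraries reached 0.5 FPKM. Wound effects came from 1 fit of all 24 libraries that included a mouse term, and were called at an adjusted p under 0.001. Site comparisons used the 12 unwounded or the 12 wound libraries, at 0.05, and responses by an F test at 0.05. Benjamini-Hochberg adjustment ran over all tested genes. Exact two-sided permutation tests of 4 against 4 libraries cannot go below p = 0.0286, and sign changes within 4 mice cannot go below 0.125.

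Both libraries of a mouse are paired by the labels. Deviations from group means correlated between both libraries of a mouse (mean r 0.32 for abdomen, 0.35 for back, 0.28 for cheek, lowest -0.03), against -0.11, -0.12 and -0.10 between mice. The negative values between mice follow largely from subtracting the group means and are not a separate comparison. Each mouse gave 1 site, so mouse numbers do not pair sites.

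The depth of the libraries is unknown, as FPKM carry no counts, and so is their counting error. Steps of the low values of 79 genes put relative depth between 0.950 and 1.05. These genes were kept only if their values lay within 0.15 of whole multiples of 1 common step. Larger differences in depth could therefore not have been seen this way. The fits were tested on simulated data with known changes. Of 200 genes changed by 1 on the log2 scale in back wounds, 132 (66%) were called at 0.001, with 1 call among the other genes. Smaller changes were not simulated, so a member left uncalled is not shown to be unchanged.

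Every member is named. Of the pathway list, genes called at all 3 sites or by the F test are named, and the rest counted. Members, lists and rules were chosen with earlier results of these data known. Alternatives were other pseudocounts (0.1 and 1), filters, scalings, moderation, model terms and sets of libraries, and each mouse left out in turn. The mean wound effect and the fit without mice with hair follicle genes were added after the data had been seen. RefSeq promoter sequences were matched by symbol, and Fgf1 and Fgfr1 sequences were not used here.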

Additional observations from a re-analysis of the deposited data

Results flagged for a closer look

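In groups of 4 libraries, a value was marked when its gap to the nearest other, divided by the range of the group, exceeded Dixon's 95% critical value. Chance marks about 1 in 20 groups, and 6 of 66 groups (10 members and Fgf5 in 6 groups each) were marked. For Fgf18 (3.07 FPKM) and Fgf5 (2.72 FPKM) it was the unwounded cheek library of mouse 4, which also held the growing hair follicle genes. The others were Fgf7 in unwounded abdomen of mouse 1 (6.48 FPKM, below the other 3), Fgf10 in the abdomen wound of mouse 1 (1.14 FPKM, above), Fgfr3 in unwounded back of mouse 3 (13.14 FPKM, below) and Fgfbp1 in unwounded back of mouse 2 (51.36 FPKM, above).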

How the results depend on the processing

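No member's called effect changed sign under any alternative. The count of members called in abdomen wounds (0) became 1 with median-ratio scaling, 2 with quantile normalization, 2 with no replicate block (no term for the mouse, so no pairing) and 6 at the threshold of 0.05, and ran from 0 to 1 with 1 mouse left out. In back wounds (2) it became 1 with no replicate block and 4 at 0.05, with 0 to 2 on leaving out a mouse. In cheek wounds (1) it became 2 with quantile normalization, 5 at 0.05 and 0 with the 8 cheek libraries alone, with 0 to 1 on leaving out a mouse. Between unwounded back and abdomen (2) it was 0 with median-ratio scaling, 0 with the mouse number as a replicate block, 3 (Fgfr3 added) with all 24 libraries and 0 to 2 with a mouse left out. Between unwounded cheek and abdomen (1) it was 0 with that block and 0 to 1 with a mouse left out. Between unwounded cheek and back (0) it was 1 when all 24 libraries were fitted. Between cheek and abdomen wounds (2) it was 1 with all 24 libraries, 3 (Fgf22 added) with quantile normalization and with the mouse number as a replicate block, and 0 to 3 with a mouse left out, and between cheek and back wounds (0) it was 0 to 1, the 1 being Fgf1 without abdomen mouse 3 or back mouse 1. Without the 3 mice with hair follicle genes the counts were 1, 1 and 0 for abdomen, back and cheek wounds, 3 instead of 5 for the mean effect (Fgf1 and Fgfr2 lower, Fgf22 higher), 1 and 0 for unwounded back and cheek against abdomen, and 0 for cheek against abdomen wounds, with fewer libraries fitted. That fit left out cheek mice 3 and 4, the only mice with less Fgf22 in the wound, so its Fgf22 call is not separate evidence. With no replicate block the mean effect called 6, and with 1 mouse left out 4 to 5. Mouse numbers name different animals at each site, so the block across sites pairs no samples. The cause of each change was not tested. Of single values, 974 kept direction and side of the threshold under the other settings, 18 lost and 28 gained a call, and with 1 mouse left out 1149 kept, 43 lost and 8 gained it. The precision of low genes such as Fgf2 cannot be stated, as FPKM give no counts.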

Other observations

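Some other genes of the family and its pathway, picked after their values were seen, are described here and do not stand for the list. By the mean wound effect 19 of the 68 tested list genes were called higher and 10 lower. Of all tested genes 19.1% were called higher and 14.4% lower. Fgf21, a ligand best known as a liver hormone, was at 0.328, 0.233 and 0.190 FPKM in unwounded abdomen, back and cheek and at 0.825, 1.17 and 1.19 FPKM in wounds, and its mean effect over the sites passed the test (log2 fold change 1.07, SE 0.16, adjusted p = 7.61e-05). Fgf9 ran the other way at similarly low levels, from 0.628, 0.540 and 0.353 FPKM to 0.228, 0.208 and 0.195 FPKM (-0.49, adjusted p = 0.000541). A gene entered the fit if 4 libraries reached 0.5 FPKM. Group means reached that level only in wounds for Fgf21 and only in unwounded skin for Fgf9. Of the other ligands 3 were tested for wound effects, but 1 among unwounded and 1 among wound libraries. Entry could thus rest on the higher state alone, so these calls are not independent of the filter. Fgfrl1, a receptor-like protein without a kinase domain, fell in back wounds by 0.76 on the log2 scale (adjusted p = 0.000219).

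Fgfr4, the receptor gene outside the 10 members, was higher in unwounded abdomen (6.69 ± 0.792 FPKM, n = 4) than in back (3.79 ± 0.203 FPKM) and cheek (3.51 ± 0.716 FPKM), and both differences passed 0.05 (-0.74, adjusted p = 0.0159, and -0.85, adjusted p = 0.00844). Gpc1, a membrane-anchored heparan sulphate proteoglycan, was lower in abdomen (21.4 FPKM against 38.4 in back and 39.3 FPKM in cheek, adjusted p = 0.0244 and 0.0232). Of 65 list genes tested in unwounded skin, 4 were called between back and abdomen and 2 between cheek and abdomen. The shares of all genes were 2.67% and 2.57%. Fosl1, a transcription factor of the response to MAP kinase signalling, rose in back (2.67, adjusted p = 0.000218) and cheek wounds (2.31, adjusted p = 0.000834). Spred3, an inhibitor of that pathway, rose in the same wounds (1.11, adjusted p = 0.000118, and 1.22, adjusted p = 8.50e-05). By the mean wound effect, 3 of the 11 feedback inhibitors were called higher and 2 lower.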
